A study of Drosophila melanogaster with 9 samples.

Results

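The 43 genes described here encode Polycomb and Trithorax proteins, subunits of SWI/SNF and other chromatin remodellers, corepressors and heterochromatin proteins of Drosophila melanogaster. They were taken by symbol from a list of named genes, and all 43 were found among the 16727 gene symbols with counts. The list holds 17 Polycomb genes, 10 Trithorax genes, 7 SWI/SNF genes, 5 genes of other remodellers and corepressors, and 4 heterochromatin genes. All 43 passed the filter on low counts and were among the 9082 genes tested.

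Polycomb proteins keep developmental genes silent by marking and compacting their chromatin, and Trithorax proteins keep the same kind of genes active. Polycomb repressive complex 2 (PRC2) methylates histone H3, PRC1 binds that mark and ubiquitinates histone H2A, and Trithorax complexes methylate histone H3 at another residue. SWI/SNF complexes slide and evict nucleosomes with the energy of ATP, and in the larval brain they are known to keep progeny of neural stem cells (neuroblasts) from reverting to stem cells.

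All 3 groups carried clones made with an actin flip-out driver (actinF/O>) that expressed UAS-HA-mγ, UAS-HA-dpn and GFP; mγ and dpn encode HES family repressors active in neuroblasts, and the tumours are named DM after them. The primary group was GFP-positive cells sorted after collagenase dissociation, from pools of 150 brains of 3rd instar larvae, 4 days after clone induction. The T0 group was unsorted GFP masses of the first transplantation into adult w1118 flies, grown for 8 to 10 days and pooled from 25 hosts. The T3 group was the same kind of mass from the fourth transplantation, so all comparisons are between tumours and no normal brain was measured. The actin promoter is active in all cell types, and sorting, dissociation, host, age and growth time all differ between primary and transplanted tumours and cannot be told apart.

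Each group had 3 libraries of polyadenylated RNA, with 7932772 to 14093032 counts each. The members held between 179 and 27535 counts in a library, with a median of 1815, and none was at 0. The 8 neuroblast markers summed to 4281 to 4764 CPM (counts per 1e6 counts of a scaled library) in primary, 4525 to 5501 in T0 and 4868 to 5239 in T3. That sum includes dpn, whose transgene is counted with it, and its largest part is mira, at 1883, 1871 and 1742 CPM in primary, 2354, 2791 and 2321 in T0 and 2435, 2427 and 2386 in T3. The list did not move as one: 3 neuroblast markers rose (mira, klu and grh) and 3 fell (dpn, ase and wor) in T0, and 2 rose (mira and Imp) and 2 fell (dpn and ase) in T3, with ase at -2.31 ± 0.22 on the log2 scale in T0 (adjusted p = 7.49e-06). All 8 neuron markers fell in both transplanted groups, from a sum of 1246 to 2230 CPM in primary to 183 to 279 in T0 and 130.2 to 189 in T3. Blood cell markers (7 genes) summed to 14.7 to 28.8 CPM in primary, 79.7 to 355 in T0 and 76.7 to 117 in T3, with He at 0 in primary. Of 6 tested, 4 rose in T0, and 4 rose and 1 fell in T3. Adult fat body markers (7 genes) summed to 37.0 to 40.6, 134 to 293 and 44.3 to 116 CPM, with Lsp2 at 0 in primary and Fbp1 at 0 in T0. All 5 of these that were tested rose in T0 and 3 rose in T3. Glia markers (6 genes) summed to 427 to 633, 662 to 891 and 464 to 706 CPM, ovary markers (8 genes) to 37.4 to 56.6, 47.2 to 95.3 and 40.0 to 60.0 CPM, and muscle markers (6 genes) to no more than 3.85 CPM in any library. Of 5 ovary markers tested, 2 rose and 1 fell in T0, and 1 fell and none rose in T3. Eaat1 was the single glia marker that rose in both comparisons (1.40 ± 0.23 in T0, adjusted p = 4.75e-04), while 3 fell in T0 (repo, Gs2 and alrm) and 3 in T3 (Gs2, nrv2 and alrm). Their part in the members' levels was not tested, and in bulk tissue fewer cells of a type and less RNA per cell cannot be told apart.

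Single libraries stood apart. Of the 3 primary libraries, replicate 1 was the highest for 33 of 43 members, and T0 replicate 2 was the lowest of its group for 33. T3 replicate 1 was the lowest of its group for 28 members and T3 replicate 4 the highest for 32. The excess in primary replicate 1 rose with the exon length of the gene. Its Spearman rho was 0.88 over 43 members and 0.60 over 8963 genes with a known length, which all share the same libraries. The 24 members with at least 5 kb of exon stood a median of 0.56 higher (log2) in primary replicate 1 than in replicates 2 and 4, and all 1351 genes of that length 0.45 higher. T0 replicate 2 held the highest sums of blood cell markers, fat body markers and ovary markers in T0, but its difference from T0 replicates 3 and 4 had a rho of only -0.085 with length over the members. The numbers of members that passed the test are therefore also given without these libraries.

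Against primary, more members fell than rose. In T0, 1 member rose and 10 fell, that is, they passed edgeR's quasi-likelihood test at a Benjamini-Hochberg adjusted p under 0.05 over all 9082 genes tested (called). That is 25.6% of the members, against 45.6% of all genes tested, 22.4% called higher and 23.2% called lower. In T3, 1 member rose and 18 fell, 44.2% of the members against 47.2% of all genes, 23.1% called higher and 24.1% lower. The share of members that fell was 23.3% in T0, close to the background, and 41.9% in T3, above it. The share that rose was 2.33% in both. The background was not matched for exon length. At least 5 kb of exon is held by 24 of 43 members and by 1351 of 8963 genes with a known length. Those 1351 genes had a median of -0.34 (log2) in T3, with 899 below 0, against 0.05 for the 7612 shorter genes. In T0 the medians were -0.10 and 0.03. The 24 longer members had a median of -0.54 in T3 and the 19 shorter ones -0.27. A setting with the length trend taken out is given below. The median log2 fold change over the members was -0.19 in T0 and -0.37 in T3, against 0.01 and 0.00 over all genes. T0 and T3 were compared with the same primary libraries, so both sets of values share them.

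The single member that rose in both comparisons was ash2, and the 10 that fell in T0 also fell in T3. The other 8 that fell in T3 were Su(z)12, Jarid2, Psc, Asx, nej, skd, osa and Mi-2, and all 8 had a log2 fold change below 0 in T0 too. The remaining 24 members passed in neither comparison. The 3 libraries of T0 lay wholly above those of primary for 2 members and wholly below for 13, where 54.8% of all genes lay apart in either direction. For T3 these numbers were 4 and 20, where 57.9% of all genes lay apart. Without primary replicate 1, 7 of the 11 calls in T0 remained and trx and G9a joined as higher (trx 0.60, adjusted p = 0.036), while 12 of the 19 calls in T3 remained. All genes called then numbered 3985 in T0 and 3826 in T3, against 4144 and 4284 with all libraries. Without T0 replicate 2, 7 of 11 calls remained and Pc joined as higher (0.43, adjusted p = 0.034). Without T3 replicate 1, 12 of 19 remained, and without T3 replicate 4, 16 of 19 remained and kis and Sin3A joined as lower. All genes called numbered 3692 in T0 without T0 replicate 2. In T3 they numbered 3492 without T3 replicate 1 and 3961 without T3 replicate 4. The authors' deposited tables call 1 member higher and 12 lower in T0, and 1 higher and 20 lower in T3, which include all 11 and all 19 called here.

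**Figure D1:**
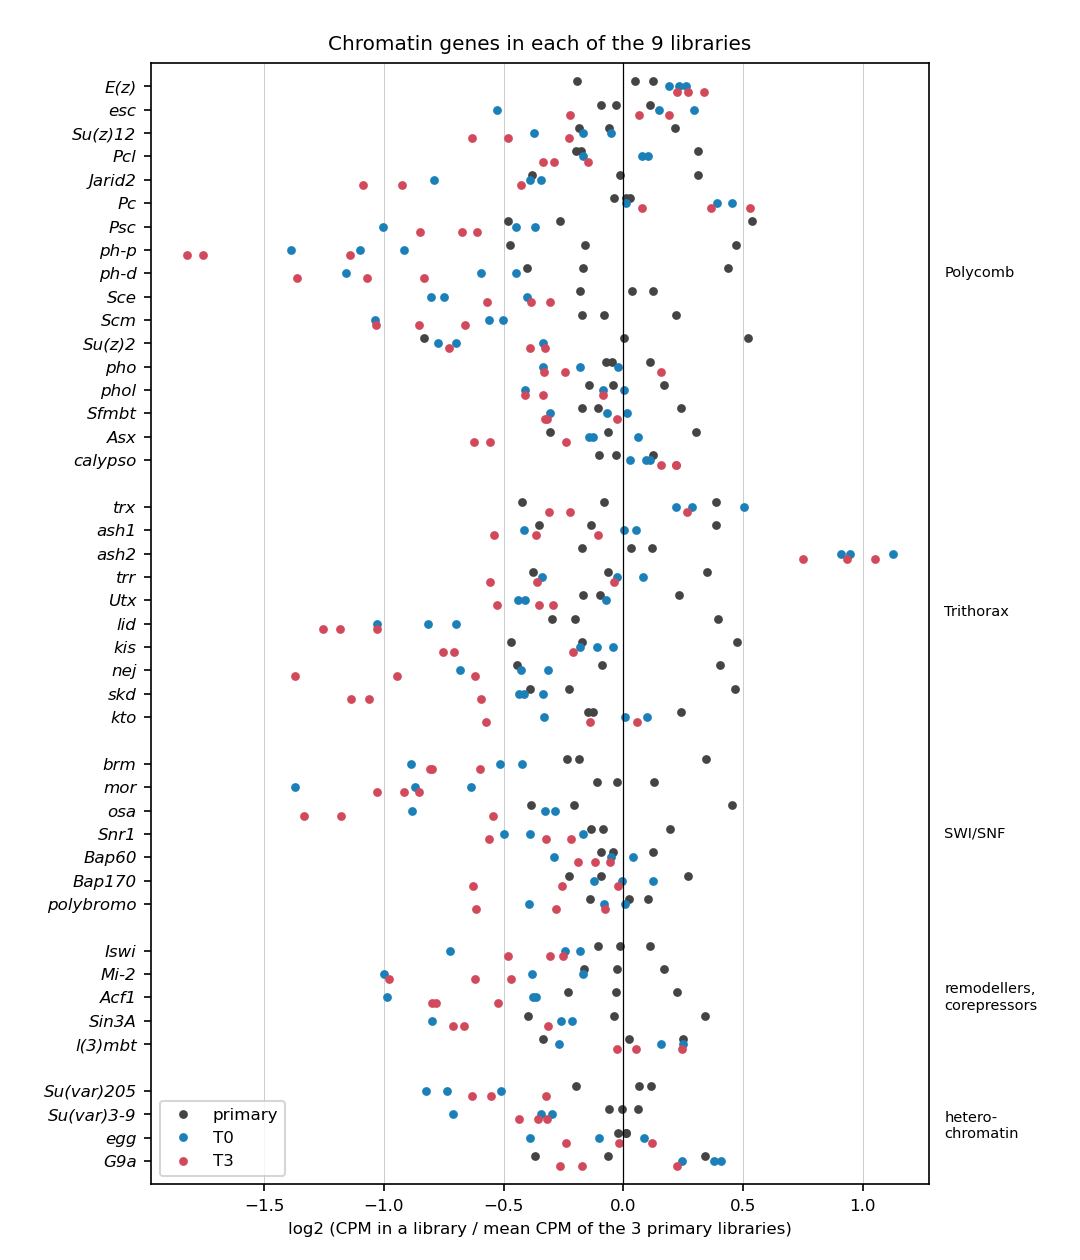
Each point is 1 library, placed by the log2 ratio of a gene's CPM to its mean CPM over the 3 primary libraries, with genes in rows ordered by group. Points of T0 and T3 lie to the left of 0 for most of the PRC1 genes, lid, mor and brm, and ash2 is the gene whose 6 transplanted libraries all lie near 1.

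**Figure D2:**
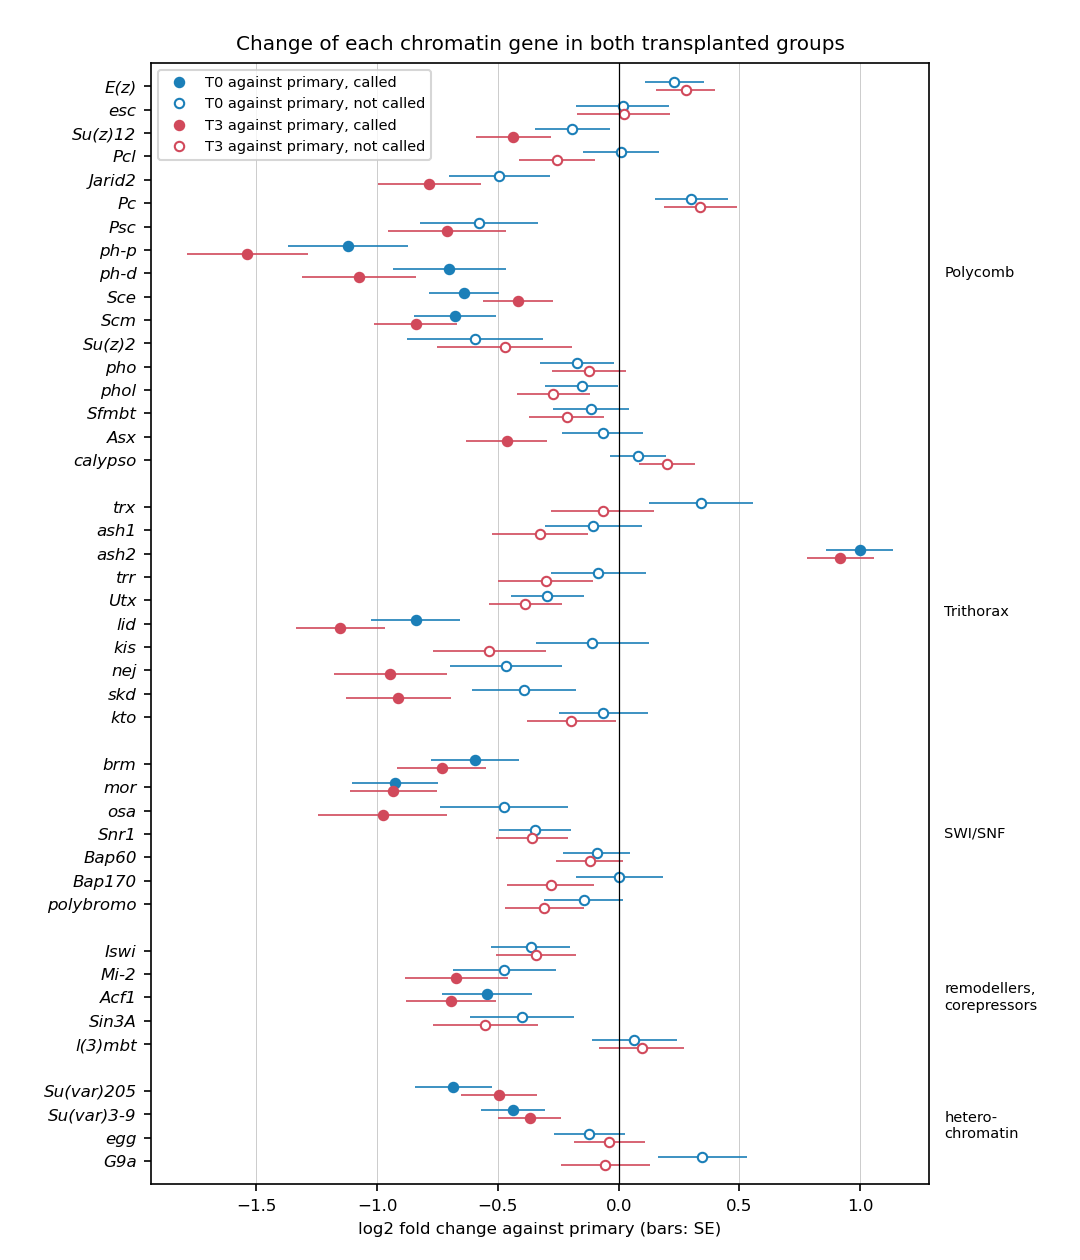
Points are log2 fold changes of T0 and T3 against primary with bars of 1 SE, filled where the adjusted p was under 0.05. In T0 11 points are filled and in T3 19, and ash2 is the only filled point to the right of 0.

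Within Polycomb, PRC1 held the genes that fell in T0. Of its 7 genes (Pc, Psc, ph-p, ph-d, Sce, Scm and Su(z)2), 4 fell in T0 and 5 in T3, where 23.2% and 24.1% of all genes tested fell. Of the 5 PRC2 genes, 0 were called in T0 and 2 fell in T3. The PRC2 gene Jarid2 was near the threshold in T0 (adjusted p = 0.075). It passed there in 3 of 14 alternative settings, as the PRC1 gene Psc did in 4. None of the 3 genes of the Pho repressive complex was called in either, and of the 2 genes of the Polycomb deubiquitinase 1 fell in T3. The difference between these complexes was not tested.

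The gene ph-p (X, 2126210 to 2138371, minus strand, dm6) encodes polyhomeotic proximal, a PRC1 subunit whose SAM domain lets complexes assemble into chains. It was at 357, 186 and 231 CPM in primary, 98.5, 136 and 120.4 in T0 and 76.3, 72.8 and 117 in T3. All 6 transplanted libraries lay below the lowest primary library. The log2 fold change was -1.12 ± 0.25 (SE) in T0 (adjusted p = 0.0030) and -1.54 ± 0.25 in T3 (adjusted p = 3.80e-04), a 2.18-fold and a 2.91-fold lower level. Without primary replicate 1, the highest library, the T0 value was -0.80, adjusted p = 0.015 and the T3 value -1.21, adjusted p = 0.0017.

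Its tandem copy ph-d (X, 2115727 to 2123286, minus strand), polyhomeotic distal, was at 178, 99.4 and 117 CPM in primary, 58.9, 96.2 and 87.1 in T0 and 51.1, 62.5 and 73.8 in T3. The highest T0 library, at 96.2 CPM, lay just under the lowest primary library, at 99.4. It fell by 0.70 on the log2 scale in T0 (adjusted p = 0.028) and by 1.07 in T3 (adjusted p = 0.0029), and the T0 call was lost without primary replicate 1 (-0.40, adjusted p = 0.17) and without T0 replicate 2 (-0.52, adjusted p = 0.096). Per kb of exon, ph-p stood 1.73 ± 0.064 times as high as ph-d in primary (SD, n = 3), 1.33 ± 0.14 times in T0 and 1.26 ± 0.20 times in T3. The 3 primary ratios (1.66 to 1.78) lay above all 6 transplanted ones (1.04 to 1.49). The copies are alike in sequence and the handling of reads that match both is not given in the sources used here, so the split of counts between them is uncertain.

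Scm (3R, 9633359 to 9637611, minus strand), Sex comb on midleg, is another SAM domain protein that binds polyhomeotic. It was at 171, 131 and 139 CPM in primary, 71.5, 104 and 99.7 in T0 and 81.3, 71.8 and 92.9 in T3. It fell by 0.68 on the log2 scale in T0 (adjusted p = 0.0062) and by 0.84 in T3 (adjusted p = 0.0017), and no transplanted library reached the primary range. Sce (3R, 27680431 to 27682029, minus strand) encodes the RING ligase of PRC1 that ubiquitinates histone H2A. It was at 70.0, 86.4 and 81.3 CPM in primary, 45.4, 59.9 and 47.1 in T0 and 60.7, 64.1 and 53.3 in T3. Here primary replicate 1 was the lowest primary library and still lay above all 6 transplanted ones. Sce fell by 0.64 in T0 (adjusted p = 0.0035) and by 0.42 in T3 (adjusted p = 0.032). The T3 call was lost without primary replicate 2 or 4 or T3 replicate 1 or 4, and also with no filter on low counts.

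Psc, the RING partner of Sce, was at 206, 102 and 118 CPM in primary, 70.9, 104 and 110.0 in T0 and 78.8, 88.9 and 92.8 in T3, and only primary replicate 1 stood clearly above the rest. It was not called in T0 (-0.58 ± 0.24, adjusted p = 0.070). It fell in T3 (-0.71 ± 0.24, adjusted p = 0.031), a call lost without primary replicate 1 (-0.31, adjusted p = 0.21) or T3 replicate 1 (-0.64, adjusted p = 0.098), and also without T3 replicate 2. Its paralogue Su(z)2, on the same chromosome arm, was the lowest of the 43 members, at 42.2, 16.5 and 29.5 CPM in primary, 23.3, 18.1 and 17.2 in T0 and 23.4, 22.5 and 17.8 in T3, and the groups overlapped. Su(z)2 was not called, at -0.60 ± 0.28 in T0 (adjusted p = 0.10) and -0.47 ± 0.28 in T3 (adjusted p = 0.18). It passed in 2 of 14 alternative settings in T0 and in 1 in T3. Per kb of exon, Psc stood 5.31 ± 1.15 times as high as Su(z)2 in primary, 5.37 ± 1.89 in T0 and 4.43 ± 1.01 in T3. Pc, whose chromodomain binds the PRC2 mark, went the other way, at 79.5, 76.7 and 80.4 CPM in primary, 79.5, 103 and 108 in T0 and 102, 83.3 and 114 in T3. Its log2 fold change was 0.30 ± 0.15 in T0 (adjusted p = 0.13) and 0.34 ± 0.15 in T3 (adjusted p = 0.084), below the threshold in both.

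The PRC2 methyltransferase E(z) (3L, 10634575 to 10638130, minus strand) was at 109, 115 and 91.9 CPM in primary, 126, 124 and 120.1 in T0 and 123, 133 and 127 in T3. All 6 transplanted libraries lay above the 3 primary ones, but the log2 fold change of 0.23 ± 0.12 in T0 (adjusted p = 0.14) and 0.28 ± 0.12 in T3 (adjusted p = 0.080) did not pass. The core subunit esc differed by 0.02 ± 0.19 in both comparisons. The core subunit Su(z)12 was at 182, 150.1 and 138 CPM in primary, 121, 151 and 139 in T0 and 112, 101 and 134 in T3 and fell in T3 (-0.44 ± 0.15, adjusted p = 0.035), but not without primary replicate 1 (-0.29, adjusted p = 0.16) or T3 replicate 1 (-0.41, adjusted p = 0.10), nor without replicate 2 of either group.

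The accessory PRC2 subunit Jarid2 was at 221, 137 and 176 CPM in primary, 103, 140.1 and 136 in T0 and 83.8, 93.9 and 132 in T3, with a log2 fold change of -0.49 ± 0.21 in T0 (adjusted p = 0.075) and a fall of 0.78 in T3 (adjusted p = 0.0096) that was lost without primary replicate 1 (-0.57, adjusted p = 0.058). Pcl, another accessory subunit, was not called, with 0.01 ± 0.16 in T0 and -0.25 ± 0.16 in T3.

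The Pho repressive complex brings Polycomb proteins to DNA through the zinc finger proteins pho and phol. pho was at 172, 192 and 169 CPM in primary, 157, 141 and 176 in T0 and 198, 142 and 150.3 in T3. phol was at 153, 132 and 123 CPM in primary, 102, 136 and 128 in T0 and 108, 102 and 128 in T3, and the groups of both genes overlapped. Their log2 fold changes were -0.17 and -0.15 in T0 and -0.12 and -0.27 in T3, and Sfmbt, their partner, stood at -0.11 and -0.22. Asx, the regulatory subunit of the Polycomb deubiquitinase, stood at -0.07 in T0 and fell in T3 (-0.46 ± 0.17, adjusted p = 0.038), although the highest T3 library overlapped primary. It was not called in T3 without primary replicate 1 (-0.26, adjusted p = 0.20) or 4 or T3 replicate 1 or 2. The call was also lost in the fit on the 6 libraries compared. The catalytic subunit calypso was not called (0.08 and 0.20).

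Of 8 other Polycomb partners, 5 fell (62.5%) and 0 rose in T0, and 7 fell in T3 (87.5%), where 23.2% and 24.1% of all genes tested fell. The gene jing, a zinc finger protein of PRC2, was at 343, 179 and 233 CPM in primary, 90.6, 107 and 121 in T0 and 79.8, 70.5 and 100.1 in T3 (log2 fold change -1.24 ± 0.22 in T0, adjusted p = 8.51e-04). The histone demethylase gene Kdm2, a subunit of a PRC1-like complex, was at 146, 91.5 and 91.6 CPM in primary, 35.9, 54.5 and 54.0 in T0 and 36.6, 36.3 and 45.5 in T3 (-1.18 ± 0.21 in T0, adjusted p = 8.10e-04). Caf1-55, a histone-binding subunit shared by PRC2 and other complexes, fell by 0.66 in T0 (adjusted p = 0.0031) and by 0.60 in T3 (adjusted p = 0.0053). The PRC2 gene escl had no call in either comparison.

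Classical target genes of Polycomb repression are given by their levels alone. Of 26 targets that are not members, 18 passed the filter on low counts. A gene that passed it only through the primary libraries, such as Antp, tsh or Dr, had to differ, so nothing is read from these genes about the targets as a group. The Hox gene Antp was at 76.7, 52.6 and 53.0 CPM in primary, 0, 0.183 and 0.294 in T0 and 0, 0 and 0.0855 in T3, and its highest transplanted library stood at 0.294 CPM. The trunk gene tsh was at 101, 68.3 and 86.6 CPM in primary, 0.226, 0.458 and 1.03 in T0 and 0.660, 0.251 and 0.0855 in T3. The neuroectoderm gene Dr was at 25.5, 22.8 and 25.8 CPM in primary, 0.226, 0.458 and 0.220 in T0 and 0, 0 and 0 in T3, with no count in any T3 library. The 1 tested target that was not called and is no member was Dll, a limb gene, at 68.7, 41.3 and 51.3 CPM in primary, 58.3, 67.7 and 79.9 in T0 and 38.8, 30.2 and 61.2 in T3, whose groups overlapped (0.35 in T0 and -0.31 in T3). The GATA factor gene pnr, too low to be tested, was at 0.146, 0.0806 and 0 CPM in primary, 0.792, 0.732 and 0.220 in T0 and 0.440, 0.126 and 0.256 in T3, with all T0 libraries above primary. Neuron markers fell over the same comparison, as given above, and their part in these levels was not tested.

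**Figure D3:**
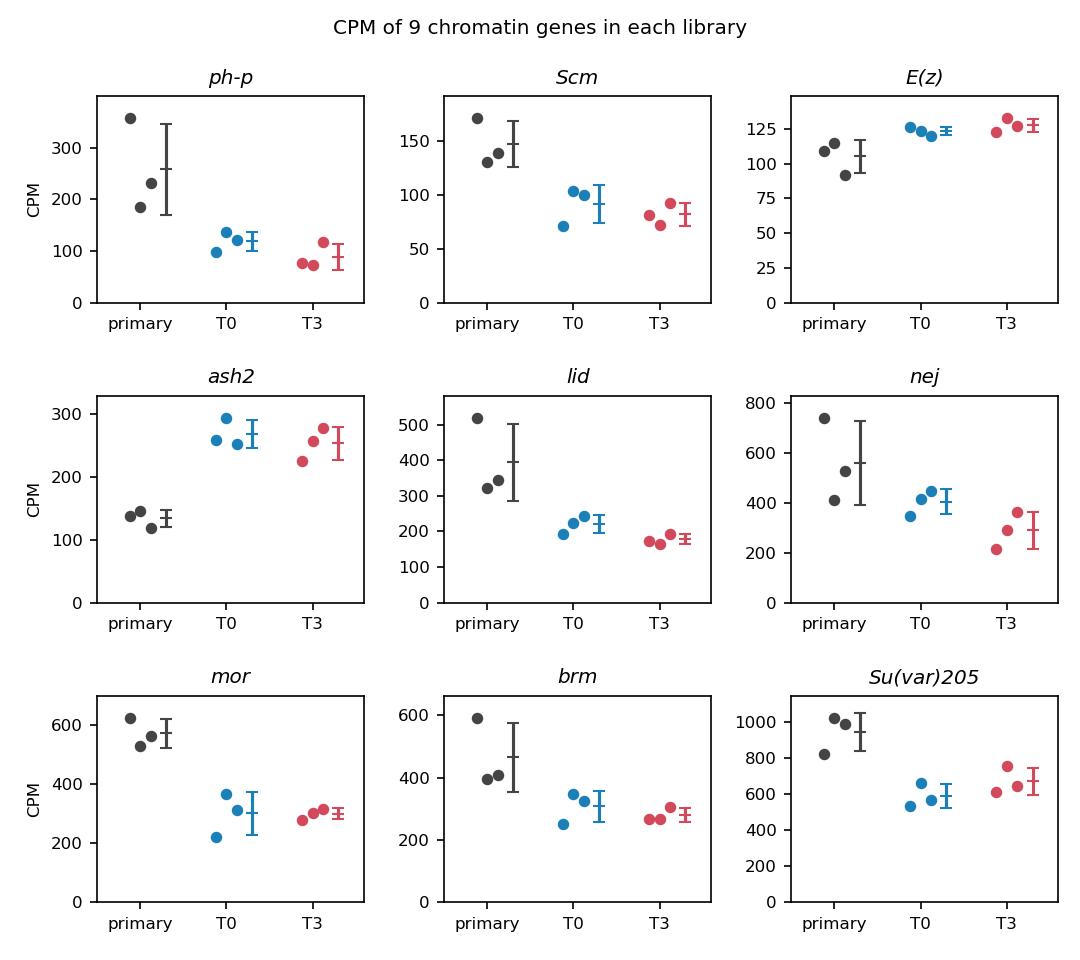
Points are the CPM of 3 libraries per group for 9 genes, with the mean and a bar of 1 SD to the right of each group, and every axis starts at 0. ph-p, Scm, lid, mor, brm and the HP1a gene were lower in all 6 transplanted libraries than in any primary one, ash2 was higher, nej was lower in the T3 libraries than in any primary one, and E(z) was higher in all 6 but not called. The last panel is the HP1a gene, drawn under its Su(var) symbol.

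Among the Trithorax genes, 1 rose and 1 fell of 10 in T0, where 22.4% of all genes rose and 23.2% fell. In T3 1 rose and 3 fell, where 23.1% of all genes rose and 24.1% fell. The gene that rose was ash2 (3R, 24650125 to 24653376, plus strand), a subunit shared by the complexes that methylate histone H3 at active genes. It was at 138, 146 and 119.5 CPM in primary, 259.6, 294 and 253 in T0 and 226, 257 and 279 in T3. The lowest of the 6 transplanted libraries, at 226 CPM, lay above the highest primary library, at 146. It rose by 1.00 ± 0.14 on the log2 scale in T0 (adjusted p = 1.40e-04), a 2.00-fold higher level, and by 0.92 ± 0.14 in T3 (adjusted p = 2.28e-04), and it passed in all 14 alternatives of each comparison. Per kb of exon it was the 12th highest of the 43 members in primary, and the 4th highest in T0 and in T3.

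The gene lid (2L, 5989400 to 5999501, minus strand) encodes the demethylase that removes the methyl mark Trithorax complexes add, and it fell. It was at 519, 321 and 344 CPM in primary, 193, 224 and 243 in T0 and 174, 165 and 193 in T3, and the primary libraries all lay above the transplanted ones. The log2 fold change was -0.84 ± 0.18 in T0 (adjusted p = 0.0029) and -1.15 ± 0.19 in T3 (adjusted p = 3.53e-04). Without primary replicate 1 it was -0.58, adjusted p = 0.0089 in T0 and -0.88, adjusted p = 8.99e-04 in T3. The subunit and the demethylase of the same mark were thus called in opposite directions within the group.

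Of the methyltransferases that work with ash2, the members trx and trr were not called. trx (3R, 14263358 to 14286903, minus strand) was at 451, 257 and 326 CPM in primary, 488, 401 and 419.8 in T0 and 278, 295 and 414 in T3, with all T0 libraries above the primary replicates 2 and 4 and T0 replicate 2 the highest. Its log2 fold change was 0.34 ± 0.21 in T0 (adjusted p = 0.21) and -0.07 ± 0.21 in T3 (adjusted p = 0.82), and without primary replicate 1 the T0 value passed, as given above. The enhancer methyltransferase trr stood at -0.08 and -0.30, and ash1, a methyltransferase of active chromatin, at -0.10 and -0.33. The histone demethylase gene Utx, which removes the PRC2 mark, stood at -0.30 ± 0.15 in T0 and -0.39 ± 0.15 in T3 (adjusted p = 0.053), with all T3 libraries below all primary ones.

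Of the 3 Trithorax genes that fell in T3, nej and skd joined lid. nej (X, 9665442 to 9687066, minus strand), the acetyltransferase CBP, was at 741, 411 and 527 CPM in primary, 349, 416 and 449.6 in T0 and 217, 291 and 365 in T3. The T0 libraries overlapped both primary and T3, and the log2 fold change was -0.47 ± 0.23 in T0 (adjusted p = 0.12) and -0.95 ± 0.23 in T3 (adjusted p = 0.0057). The genes skd and kto encode partner subunits of the Mediator kinase module. skd (3L, 20992814 to 21027434, minus strand) was at 374, 206 and 231 CPM in primary, 203, 199.97 and 214 in T0 and 123, 129 and 179 in T3, with a log2 fold change of -0.39 ± 0.22 in T0 (adjusted p = 0.16) and -0.91 ± 0.22 in T3 (adjusted p = 0.0047). kto was at 269.9, 206 and 209 CPM in primary, 182, 245 and 229.6 in T0 and 154, 208 and 238 in T3 and was not called (-0.06 and -0.20). The ratio of skd to kto per kb of exon was 0.73 ± 0.13 in primary, 0.60 ± 0.095 in T0 and 0.46 ± 0.058 in T3. The largest member by counts, the CHD family gene kis, was at 2009, 1046 and 1283 CPM in primary, 1276, 1340.2 and 1403 in T0 and 859, 885 and 1250.2 in T3 and was not called (-0.53 ± 0.23 in T3, adjusted p = 0.079).

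The list of 13 other Trithorax and COMPASS partners also holds genes that are not subunits, such as fs(1)h and Kdm4A. Of the 13, 1 rose and 3 fell (23.1%) in T0, against 23.2% of all genes falling. In T3, 1 rose and 5 fell (38.5%), against 24.1%. The one that rose was Mnn1, the fly menin, at 43.2, 36.2 and 41.3 CPM in primary, 112, 92.0 and 104 in T0 and 109.8, 84.4 and 100.1 in T3 (log2 fold change 1.35 ± 0.14 in T0, adjusted p = 1.73e-05). wds, which sits beside ash2 in the same complexes, was at 288, 282 and 243 CPM in primary, 111, 164 and 151 in T0 and 131, 141 and 149 in T3 and fell (-0.93 ± 0.16 in T0, adjusted p = 5.36e-04). The ratio of ash2 to wds per kb of exon was 0.44 ± 0.018 in primary, 1.71 ± 0.31 in T0 and 1.60 ± 0.063 in T3. That primary did not overlap either transplanted group follows from the separate levels of ash2 and wds and adds nothing to them. This pair was chosen after its values were seen. Dpy-30L1, also shared by these complexes, fell by 0.54 in T0 (adjusted p = 0.030) and by 0.67 in T3 (adjusted p = 0.010). Of 14 other Mediator genes, none rose. In T0 4 fell (28.6%, against 23.2% of all genes) and in T3 5 fell (35.7%, against 24.1%). Those that fell in T0 include the scaffold subunit MED14 (-0.53 ± 0.13 in T0, adjusted p = 0.0068), MED4 (-0.69 ± 0.18, adjusted p = 0.0074) and MED8 (-0.64 ± 0.17, adjusted p = 0.0084).

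Of the 7 SWI/SNF genes, 2 fell in T0 (28.6%, against 23.2% of all genes), 3 fell in T3 (42.9%, against 24.1%) and none rose. mor (3R, 15968134 to 15972913, minus strand), the scaffold subunit moira, was at 624, 529 and 561 CPM in primary, 221, 368 and 313 in T0 and 279.6, 302 and 316 in T3. Primary libraries lay well above the transplanted ones, and T0 replicate 2 was the lowest of all 9. mor had a log2 fold change of -0.93 ± 0.18 in T0 (adjusted p = 0.0013) and -0.93 ± 0.18 in T3 (adjusted p = 0.0012). Without primary replicate 1 it was -0.84, adjusted p = 0.0071 in T0, and without T0 replicate 2 it was -0.74, adjusted p = 0.0022.

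The ATPase gene brm (3L, 15970082 to 15982869, minus strand) was at 592, 395 and 409 CPM in primary, 251, 347 and 325 in T0 and 267, 266 and 307 in T3, with no overlap between primary and the other groups. Its log2 fold change was -0.59 ± 0.18 in T0 (adjusted p = 0.019) and -0.73 ± 0.18 in T3 (adjusted p = 0.0064). The T0 call was lost without primary replicate 1 (-0.37, adjusted p = 0.10) or T0 replicate 2 (-0.46, adjusted p = 0.066), while the T3 call remained without primary replicate 1 (-0.50, adjusted p = 0.035). osa (3R, 17687818 to 17718350, minus strand), which marks the BAP form of the complex, was at 1251, 699 and 792 CPM in primary, 495, 749 and 728 in T0 and 362, 404 and 627 in T3, fell in T3 (-0.98 ± 0.27, adjusted p = 0.0099), was not called in T0 (-0.47 ± 0.26, adjusted p = 0.16) and was not called in T3 without primary replicate 1 (-0.66, adjusted p = 0.063).

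Bap170 and polybromo, the subunits among the members that mark the PBAP form, the other form of the complex, were not called. Bap170 stood at 0.00 in T0 and -0.28 in T3, and polybromo at -0.14 and -0.31. The core subunit Snr1 stood at -0.35 ± 0.15 (adjusted p = 0.076) and -0.36 ± 0.15 (adjusted p = 0.064), with all 6 transplanted libraries below primary, and the core subunit Bap60 at -0.09 and -0.12. Of 5 further SWI/SNF subunits, 2 fell in T0 (40.0%) and 3 in T3 (60.0%), where 23.2% and 24.1% of all genes tested fell. Bap55, an actin-related protein, was at 212, 265 and 251 CPM in primary, 112, 144 and 129.8 in T0 and 124, 142 and 130.1 in T3 (-0.92 ± 0.14 in T0, adjusted p = 2.80e-04), and the HMG subunit Bap111 fell by 0.70 in T0 (adjusted p = 0.0024).

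Among the 5 other remodellers and corepressors, 1 fell in T0 (20%, against 23.2% of all genes) and 2 in T3 (40%, against 24.1%). Acf1 (3R, 31793981 to 31799799, plus strand), the partner of the Iswi ATPase in nucleosome spacing, was at 339, 284 and 247 CPM in primary, 146, 224 and 226 in T0 and 167, 169 and 202 in T3, with a log2 fold change of -0.55 ± 0.19 in T0 (adjusted p = 0.030) and -0.70 ± 0.19 in T3 (adjusted p = 0.0089). The T0 call was lost without primary replicate 1 (-0.40, adjusted p = 0.13), T0 replicate 2 (-0.36, adjusted p = 0.096) or primary replicate 2. Iswi was at 613, 561 and 526 CPM in primary, 343, 500.0 and 478 in T0 and 407, 458 and 477 in T3, lower in every transplanted library than in primary, and did not pass (-0.36 ± 0.16 in T0, adjusted p = 0.089; -0.34 ± 0.16 in T3, adjusted p = 0.10). Per kb of exon brm stood at 0.53 ± 0.088 of Iswi in primary, 0.46 ± 0.018 in T0 and 0.41 ± 0.026 in T3.

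Mi-2 (3L, 19882051 to 19910215, minus strand), the ATPase of the NuRD complex, was at 817, 649 and 713 CPM in primary, 363, 647 and 558 in T0 and 369, 474 and 525 in T3. In T0 it stood at -0.47 ± 0.21 (adjusted p = 0.088), with all T0 libraries below primary, and passed in 4 of 14 alternative settings. It fell in T3 (-0.67 ± 0.21, adjusted p = 0.021), a call lost without primary replicate 1 (-0.55, adjusted p = 0.093) or T3 replicate 1 (-0.53, adjusted p = 0.094). The corepressor gene Sin3A stood at -0.40 in T0 and -0.55 ± 0.22 in T3 (adjusted p = 0.053). The gene l(3)mbt, whose loss is known to cause brain tumours in larvae, was at 119.5, 79.7 and 102 CPM in primary, 83.5, 112 and 119 in T0 and 98.8, 104 and 119 in T3 and was not called (0.07 and 0.10).

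Of 18 other genes of the ISWI, NuRD, CHD and INO80 families, 1 rose and 7 fell (38.9%) in T0, and 8 fell in T3 (44.4%), against 23.2% and 24.1% of all genes falling. Chrac-16, a histone-fold subunit of an Iswi complex, was at 86.4, 116 and 118 CPM in primary, 46.4, 64.0 and 50.2 in T0 and 49.8, 64.0 and 57.5 in T3 (-0.99 ± 0.17 in T0, adjusted p = 5.40e-04). The AAA ATPase gene pont fell by 0.84 in T0 (adjusted p = 0.0011), and the histone deacetylase gene HDAC1 by 0.81 (adjusted p = 0.0036). The gene that rose was the ATPase Ino80 (0.52 ± 0.13 in T0, adjusted p = 0.0061), which did not pass in T3 (0.31 ± 0.13, adjusted p = 0.069). Of 13 other histone enzyme genes 12 were tested. The other, HDAC3, is listed at 0 in all libraries, but all of its exon bases are overlapped by another gene on the same strand, so no level is read from it. HDAC6 (0.83, adjusted p = 0.0011) and the acetyltransferase gene Gcn5 (0.49, adjusted p = 0.018) rose in T0, and the deacetylase gene Sirt1 fell (-0.39, adjusted p = 0.047). In T3 2 of the 12 rose and 2 fell. The shares were 16.7% higher and 8.33% lower in T0, where 22.4% of all genes rose and 23.2% fell. In T3 they were 16.7% in each direction, where 23.1% rose and 24.1% fell.

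Of the 4 heterochromatin genes, 2 fell in both comparisons, where 23.2% of all genes fell in T0 and 24.1% in T3. The gene of HP1a (2L, 8209626 to 8211122, minus strand), which stands among the members under its Su(var) symbol and whose protein binds methylated histone H3 in heterochromatin, had the highest level of the 43 members per kb of exon. It was at 826, 1025 and 990.3 CPM in primary, 534, 665 and 569 in T0 and 612, 757 and 646 in T3. No transplanted library reached the lowest primary one, which was replicate 1. The HP1a gene fell by 0.68 on the log2 scale in T0 (adjusted p = 0.0039) and by 0.50 in T3 (adjusted p = 0.021), and the T3 call was lost without T3 replicate 1 (-0.43, adjusted p = 0.091) or 4 or primary replicate 2 or 4.

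The methyltransferase that makes the mark HP1a binds, Su(var)3-9 (3R, 15259864 to 15263458, minus strand), was at 78.9, 75.2 and 72.5 CPM in primary, 46.1, 61.5 and 59.4 in T0 and 55.9, 60.6 and 59.1 in T3, with groups apart. Its log2 fold change was -0.44 ± 0.13 in T0 (adjusted p = 0.017) and -0.37 ± 0.13 in T3 (adjusted p = 0.036). The T0 call was lost without primary replicate 1 (-0.39, adjusted p = 0.055) or T0 replicate 2 (-0.32, adjusted p = 0.059). The T3 call was lost without any 1 of primary replicates 1, 2 and 4 or T3 replicates 1, 2 and 4, and also with no filter on low counts or with a replicate block. It shares 352 bases of exon, 14.8% of its exon length, with the gene of the translation factor eIF-2gamma on the same strand, at 280.3 ± 26.5 CPM in primary, 223 ± 25.0 in T0 and 257 ± 12.8 in T3, and the sources used here do not give how reads in the shared exons were counted. The HP1a gene stood 27.1 ± 3.94 times as high as Su(var)3-9 per kb of exon in primary, 22.9 ± 2.20 in T0 and 24.6 ± 1.94 in T3.

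The other methyltransferase genes of heterochromatin and silent chromatin were not called. egg was at 152, 153 and 149 CPM in primary, 115, 161 and 141 in T0 and 128, 164 and 149.7 in T3 (-0.12 and -0.04), and G9a at 151, 92.7 and 114 CPM in primary, 156, 142 and 159 in T0 and 106, 99.4 and 139.6 in T3 (0.35 ± 0.18 in T0, adjusted p = 0.14; -0.05 ± 0.18 in T3). Of 16 other heterochromatin genes, none was called higher. In T0 5 fell (31.2%, against 23.2% of all genes) and in T3 8 fell (50.0%, against 24.1%). In each comparison 3 of the 16 had a log2 fold change above 0 without a call, the largest 1.64 in T0 and 2.47 in T3. HP4 was at 128, 170.3 and 173 CPM in primary, 73.7, 85.1 and 73.3 in T0 and 66.0, 92.3 and 73.3 in T3 (-1.02 ± 0.16 in T0, adjusted p = 3.54e-04). The HP1 paralogue HP1b fell by 0.85 in T0 (adjusted p = 0.0023) and the satellite-binding protein gene D1 by 0.69 (adjusted p = 0.0073). Over all 7 lists of chromatin genes outside the 43, 86 genes were tested. In T0 4 rose (4.65%) and 27 fell (31.4%), where 22.4% of all genes rose and 23.2% fell. In T3 3 rose (3.49%) and 38 fell (44.2%), where 23.1% rose and 24.1% fell.

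Set side by side, the share of genes that fell in T0 was 4 of 17 for Polycomb, 1 of 10 for Trithorax, 2 of 7 for SWI/SNF, 1 of 5 for other remodellers and 2 of 4 for heterochromatin, with 23.2% of all genes tested falling. In T3 it was 8 of 17, 3 of 10, 3 of 7, 2 of 5 and 2 of 4, against 24.1%. Median log2 fold changes in T0 were -0.17, -0.11, -0.35, -0.40 and -0.28 in that order, and in T3 -0.42, -0.36, -0.36, -0.55 and -0.21. A difference between the groups was not tested.

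The 43 members also differed widely in level. Per kb of exon in primary, the HP1a gene was at 854 ± 95.8 CPM per kb (SD, n = 3), followed by Bap60 at 232 ± 18.7 and Iswi at 155 ± 12. These 3 held the same places in T0 and T3. Iswi, mor (143 ± 12.1) and Snr1 (142 ± 18.2) did not differ beyond their spread in primary. ph-p moved from the 23rd place in primary to the 36th in T0 and the 39th in T3, and lid from the 14th to the 26th and the 27th. At the low end, Su(z)2 was at 4.38 ± 1.91 CPM per kb, and G9a (16.5 ± 4.11), ash1 (17.8 ± 4.87) and Asx (17.9 ± 3.86), next above it, lay within their spread of each other.

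Between T3 and T0, none of the 43 members was called. The same test called 0 of 9082 genes, 0.0% in either direction, 0.0% higher and 0.0% lower. At an unadjusted p under 0.05 stood 2 members and 746 genes, and DESeq2 called 0 members and 13 genes. The members' median log2 fold change was -0.14, against -0.01 over all genes, and 31 of 43 lay below 0. T3 libraries lay wholly below T0 for 5 members (Asx, lid, kis, skd and G9a) and wholly above for 1 (calypso), where 15.1% of all genes lay apart. The largest difference was that of skd (-0.52 ± 0.22, adjusted p = 0.59), followed by osa (-0.50 ± 0.26) and nej (-0.48 ± 0.23).

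These differences followed exon length. The log2 fold change of T3 against T0 had a Spearman rho of -0.79 with exon length over the 43 members and -0.40 over 8963 genes, from the same 6 libraries. Of the 24 members with at least 5 kb of exon, 22 lay below 0, with a median of -0.25, and all 1351 genes of that length had a median of -0.26. The 19 shorter members had a median of 0.00 and the 7612 shorter genes 0.03. With a length trend per library taken out, a setting added after the data were seen, 12 of 43 members changed sign between T3 and T0 and none was called. Against primary, rho over the members was -0.076 in T0 and -0.44 in T3, and over 8963 genes -0.077 and -0.20. With the same length trend taken out, all 11 calls in T0 and all 19 in T3 remained, ph-p at -1.32, adjusted p = 5.18e-05 and ash2 at 0.81, adjusted p = 2.32e-04 in T3. Another 12 members then passed in T0, of which trx (0.34, adjusted p = 0.038) and G9a (0.34, adjusted p = 0.018) were higher and the other 10 lower, and 2 more, Utx and Snr1, were lower in T3. Of the 8963 genes with a length, 4610 were called in T0 and 4650 in T3 in this setting, so calls were also common among all genes.

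**Figure D4:**
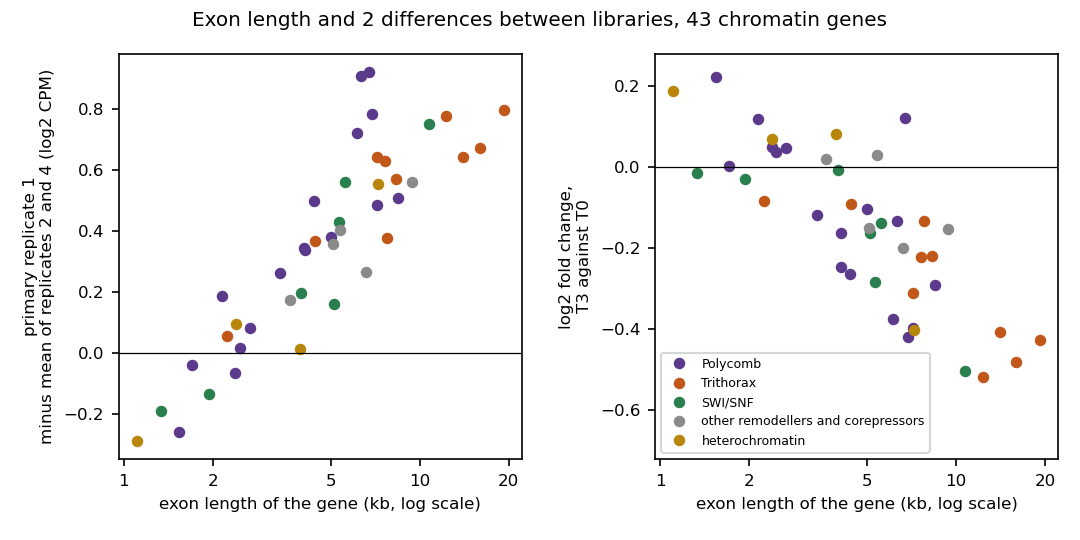
Each point is 1 of the 43 genes, placed by its exon length on a log scale. On the left the vertical axis is the log2 difference of primary replicate 1 from the mean of replicates 2 and 4, which rises with length (rho 0.88), and on the right it is the log2 fold change of T3 against T0, which falls with length (rho -0.79).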

How the data were processed

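RNA-seq of 9 libraries (3 each of primary, T0 and T3 tumours) was analysed; per the labels, libraries of polyadenylated RNA (13 PCR cycles) were read single-end over 75 nt. The build dm6 and the tools HTSeq, edgeR, bedtools 2.25.0 and HISAT2 2.1.0 are listed in the submitters' processing notes. Neither the strand setting of the counting nor its annotation release is given in the sources used here. Deposited by the authors were 3 tables with the same read counts per gene symbol, and the deposited tables also hold the authors' log2 fold change and p-value of each comparison, which were used only to count the authors' calls. Another 9 normalised columns and 4 columns of group means per table were not used. 0 table lines lacked a gene name.

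The deposited counts were fitted with edgeR 4.0.16 (R 4.3.3) after filterByExpr at its minimum count of 10 and TMM scaling, with 1 mean per group over all 9 libraries (6 residual degrees of freedom) and two-sided quasi-likelihood tests, adjusted by Benjamini-Hochberg over all 9082 genes tested and called under 0.05. SE is the log2 fold change divided by the square root of its F statistic. CPM are counts per 1e6 of the TMM-scaled library, and levels are compared between genes only per kb of the union of their exons in the Ensembl annotation on dm6 coordinates. Lengths were found for 98.7% of the genes tested. Of the members, 4 have over 10% of exon bases overlapped by another gene (Sfmbt, egg, calypso and Su(var)3-9), and without a stated strand setting reads of antisense neighbours cannot be told apart. Within groups, libraries differed by more than sampling noise, and p-values measure the spread between these pools of animals.

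The 43 members and the other gene lists were chosen with earlier results of these data known. Values per library are given for up to 4 called members per group with the smallest adjusted p, for 7 pairs of paralogues or partners and for members called in opposite directions, and for up to 3 called genes per other list with the smallest adjusted p in T0; other genes so shown were chosen after their values were seen. Alternatives were RLE and upper quartile factors, no filter, a filter of 1 CPM in 3 libraries, DESeq2 1.42.0, the 6 libraries compared, a replicate block, each library left out and an exon length offset. Motifs planned for promoters were not searched.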

Additional observations from a re-analysis of the deposited data

How the results depend on the processing

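The counts of members called lay within 1.5 times the reported ones under other scaling factors, either filter, DESeq2 and the fit on 6 libraries, for T0 and T3 against primary. Leaving out 1 library gave 8 to 14 members called in T0 against primary and 12 to 18 in T3 against primary. All genes called then numbered 3562 to 3985 in T0 and 3492 to 3961 in T3, against 4144 and 4284 with all libraries. The lowest T3 count of members, 12, came without primary replicate 1 and without T3 replicate 1. An exon length trend taken out per library, added after the data were seen, gave 23 of 43 members in T0 against primary, where 4610 of 8963 genes were called. Between T3 and T0, all genes called numbered 96 with no filter, 13 with DESeq2, and 0 to 5 with 1 library left out, the 5 without T3 replicate 2; the cause was not tested, and no member was called in any setting. Replicate numbers were not taken to pair the libraries: residuals of libraries with the same number correlated at 0.0101 to 0.15 between primary and T3 and below 0 between primary and T0. For the 2 numbers that T0 and T3 share they correlated at 0.20 and 0.256, but T0 replicate 2 correlated better with T3 replicate 1 (0.263) and T0 replicate 3 with T3 replicate 4 (0.331). With a replicate block, 5 genes passed between T3 and T0, and of the members 11 of 11 calls in T0 and 18 of 19 in T3 remained, Su(var)3-9 being lost in T3. No called member changed direction in any setting. In T0 7 of 11 calls held in all 14 alternatives (ph-p, Sce, Scm, ash2, lid, mor and the HP1a gene), and in T3 10 of 19 (ph-p, ph-d, Scm, ash2, lid, nej, skd, brm, mor and Acf1). RLE and upper quartile factors moved the median of all genes by 0.023 (log2) at most. The lowest count of a member in a library was 179, and the effect of depth on the calls was not tested.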
